A study of Mus musculus with 4 samples.

Results

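Fibroblast growth factors (FGFs) and their receptors were followed in cultured mouse chondrocytes labelled as floxed control or conditional knockout for Rela, with and without tumour necrosis factor (TNF). The 9 genes were 4 receptors (Fgfr1, Fgfr2, Fgfr3 and Fgfr4), 3 ligands (Fgf2, Fgf7 and Fgf18) and 2 intracellular feedback inhibitors (Spry2 and Spry4). A probe belonged to a gene when the accession in the array files was a RefSeq transcript of that gene, which gave 15 probes on 33 spots for all 9 genes, of 55681 transcript probes on the array and 19652 genes named through a RefSeq mRNA. Of the 15 probes, 14, for 8 genes, were well above background on all 4 arrays by the flag of the scanner software. The exception was the probe for Spry4, which missed that flag on 1 array.

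The cells were primary chondrocytes from 6-day-old littermates on a C57BL/6J background. One genotype, called control here, was Rela fl/fl, in which both copies of Rela, the gene for the p65 subunit of the transcription factor NF-κB, carry loxP sites. The other was Prrx1-Cre; Rela fl/fl (cKO), which has the same floxed alleles and in addition a Cre recombinase driven by a promoter active in limb mesenchyme, so that the Cre was not limited to chondrocytes. Each genotype was cultured for 3 days without TNF or with 10 ng/ml TNF, and 1 array was hybridised for each of the 4 conditions. With 1 array per condition no difference between 2 arrays had a replicate check and no p-value is given. A fit of additive genotype and TNF effects, which would take the interaction as its error, was not made. The sources used here do not say whether animals were pooled. The spread given below is that between spots of the same probe on 1 array, which covers neither hybridisation, culture nor animal.

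FGF ligands bind receptor tyrosine kinases together with heparan sulfate on the cell surface, and the active receptor signals through the adaptor Frs2 and the Ras, Raf and MAP kinase cascade. The cascade switches on transcription factors of the Etv family and, with them, inhibitors such as the Sprouty, Spred and Dusp6 proteins, which damp the same signal. In growth plate cartilage Fgfr3 restrains chondrocyte proliferation, Fgf18 from the perichondrium is one of its ligands, and Fgf2 is stored in the matrix around chondrocytes.

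Several facts of the arrays bear on all of the values. Signals are given as multiples of the 75th percentile over transcript spots on the same array, which lay between 590 and 634 intensity units. The Rela probe gave no lower signal under the cKO label, with signals of 28.3 and 34.7 in control cells without and with TNF and 33.9 and 40.2 on the arrays labelled cKO, and whether it lies in the deleted part was not tested. Xist was well above background on the control arrays alone. The Y-linked genes Eif2s3y and Ddx3y were well above background on all 4 arrays, and Uty and Kdm5d were on neither control array. Eif2s3y read 1.77 and 1.84 in control cells without and with TNF. It was higher on the cKO arrays, by 1.81 and 1.83 on the log2 scale without and with TNF, so that genotype and these sex-linked differences cannot be told apart. All 10 chondrocyte markers were well above background on all 4 arrays, and their summed signal was 1615 and 1540 in control cells without and with TNF and 1277 and 1305 on the cKO arrays. All 8 fibroblast and perichondrium markers were also well above background, with sums from 718 to 839, and the 6 hypertrophic chondrocyte markers were as well, with sums of 47.2 and 69.4 in control cells without and with TNF and 70.8 and 91.8 on the cKO arrays. Of the 5 leukocyte markers on the array 4 were well above background on all 4 arrays, with sums from 34.9 to 43.8, among them Itgam at 34.9, 32.2, 40.3 and 31.8, and Ptprc was on none. Under that sum the dim marker Lyz2 read 0.658, 0.246, 0.153 and 0.128 in control cells without and with TNF and on the cKO arrays without and with TNF, the first from a spot in a bright patch. Adgre1 read 0.0788, 0.0734, 0.577 and 0.0520, its 1 high value also from a spot in a patch. Of 4 endothelial markers Kdr and Pecam1 were, with sums from 17.7 to 20.7, and Cdh5 and Tek were on none. Of 4 epithelial markers Krt5 and Krt14 were, with sums from 0.236 to 0.282, and Epcam and Cdh1 were on none. Of 4 muscle markers Acta1 was, at 1.82, 1.70, 2.65 and 2.47, higher on the cKO arrays by 0.55 and 0.54 on the log2 scale without and with TNF, Des was on the cKO array with TNF alone, and Myod1 and Myog were on none. The part of these shifts in the values below was not tested, and in a culture of mixed cells fewer cells of a type and less RNA per cell cannot be told apart. Between 1.04 and 10.7% of the spots of an array lay in patches where neighbouring spots were bright on that array alone, and 14 of the 33 spots of the 9 genes lay in such a patch on some array.

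Where the technical spread is mentioned, it is the SD of the difference between 2 spots of the same probe, from probes printed on 10 spots, of which the array held 399. Only pairs of probe and array with all 10 spots well above background and no outlier were used, 788 in all and 66 under 0.15. The text uses 2 such SD, which came to 0.62 on the log2 scale for signals under 0.15, 0.32 for signals from 0.15 to 1 and 0.17 for signals of 1 or more. The class was that of the mean log2 signal of a probe over the 4 arrays. Dim probes with spots that miss the flag can spread wider. For Fgf2 the log2 SD over spots was 0.25 and 0.57 in control cells without and with TNF and 0.23 and 0.12 on the cKO arrays, against 0.22 for that class. No probe of the 9 genes passed a 2-fold difference between the arrays without and with TNF, either in control cells, where 4.77% of the 18143 probes with a RefSeq mRNA symbol that could be compared did, or on the arrays labelled cKO, where 2.93% of 19110 did. None passed it between cKO and control cells without TNF, where 5.33% of 18356 such probes did. With TNF, 1 of the 15, Spry4, passed it, against 3.51% of 18951 such probes. The median log2 difference of the 15 probes was -0.11 and 0.01 for TNF in control cells and on the cKO arrays, against 0.02 and 0.07 over the same probes. For genotype it was 0.06 without TNF and 0.16 with TNF, against 0.01 and 0.06.

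**Figure D1:**
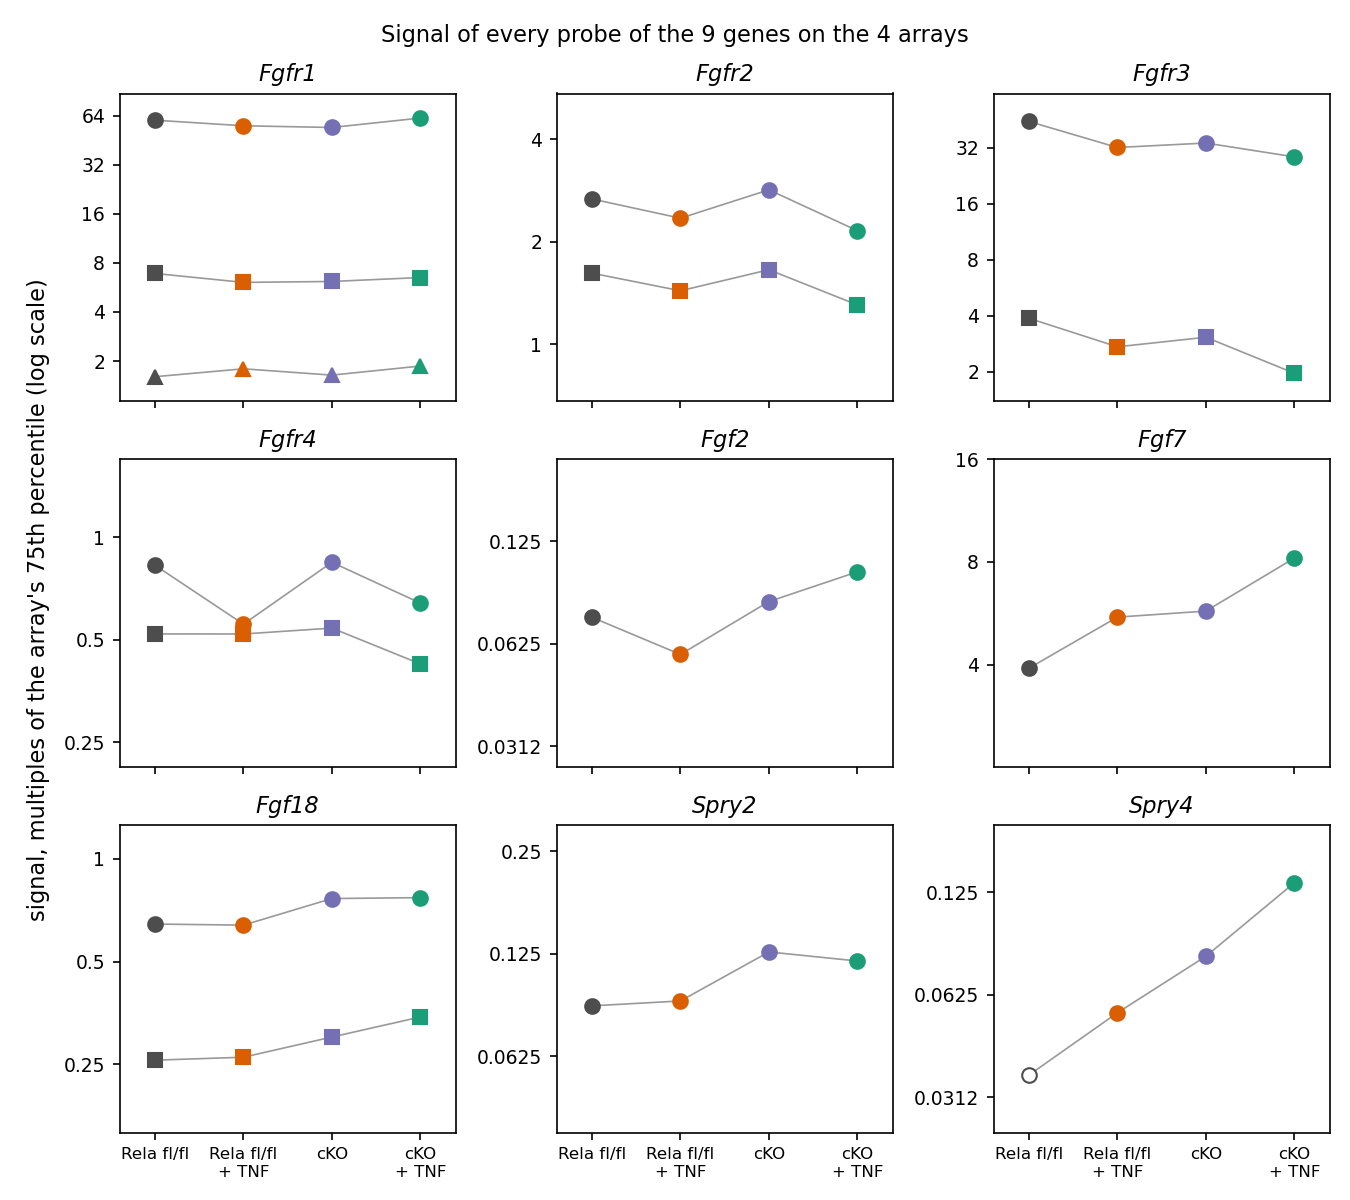
Signal of every probe of the 9 genes on the 4 arrays, in multiples of the 75th percentile of the array, on a log scale that differs between panels. Each marker shape is 1 probe, lines join the values of 1 probe, and an open marker was not well above background. Fgf7 stood at 3.90 in control cells and at 8.21 on the cKO array with TNF, and both probes for Fgfr3 were highest in control cells without TNF.

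Differences past 2 technical spreads in the same direction in both genotypes were counted next. The TNF comparison in control cells and that on the cKO arrays share no array. Of the 14 probes well above background on all arrays, 1 was higher with TNF in both genotypes (Fgf7) and 4 were lower in both (1 probe for Fgfr2, both for Fgfr3 and 1 for Fgfr4). The other Fgfr2 probe, at -0.172 in control cells, was just inside the limit of 0.173. Over the 16958 probes with an mRNA symbol well above background on all arrays the shares were 4.35% higher and 1.47% lower. Between genotypes, Fgf7 was higher and 1 Fgfr3 probe lower on the cKO arrays both without and with TNF, and the shares over the same probes were 6.16% higher and 4.36% lower.

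Fgf7, the keratinocyte growth factor, is made by mesenchymal cells and acts mainly on epithelial cells through a splice form of Fgfr2. Its 1 probe (A_55_P2035932) gave a signal of 3.90 in control cells without TNF and 5.51 with TNF, and 5.74 and 8.21 on the cKO arrays without and with TNF. The order was the same for both factors, with each TNF array above its untreated partner and each cKO array above its control partner. With TNF the signal was 1.41-fold higher in control cells and 1.43-fold higher on the cKO arrays, log2 differences of 0.50 and 0.52. The genotype difference was 1.47-fold without TNF and 1.49-fold with TNF, log2 differences of 0.56 and 0.58. All 4 were past the 0.17 of 2 technical spreads and none reached 2-fold. After normexp background correction, where 2 spreads came to 0.47 for this class, the TNF differences were 0.41 and 0.38, within it, and the genotype differences 0.53 and 0.51, past it. The TNF changes of the genotypes differed by 0.02. Among 16958 probes well above background on all arrays, 3.35 and 2.32% were at least as far up with TNF in control cells and on the cKO arrays, and 3.26 and 3.20% at least as far up by genotype without and with TNF. The spot for Fgf7 lay in no bright patch. Of 13007 genes, those whose 4 values, each centred on its own mean, were nearest to Fgf7 were Noct, Tnfrsf23 and Trim16, at root mean square differences of 0.033, 0.034 and 0.040 on the log2 scale.

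The study targets an NF-κB subunit, and Fgf7 and Fgfr3 were the members with a probe past 2 technical spreads in both TNF and both genotype comparisons, so the sequence before their start sites is shown. Windows from 250 bases before to 50 bases after the start site were taken from RefSeq on GRCm38.p6. Of the 9 genes 7 were matched to a window, and Fgfr1 and Spry4 were not. Windows of a whole chromosome were left out of this match, though kept among all windows below. A gene without a match may therefore still have an entry. Motifs were searched on both strands and are in capitals: an NF-κB motif, the AP-1 motif TGANTCA, the TATA box TATAAA, the GC box GGGCGG and the ETS core CCGGAAG. Over all 32851 windows, 8.46% held the NF-κB motif, 7.81% the AP-1 motif, 13.6% the TATA box, 35.7% the GC box and 8.86% the ETS core. The 250 bases before the Fgf7 start site (chr2:126034408-126034657, plus strand) and before the first Fgfr3 start site (chr5:33721474-33721723, plus strand) read:
Fgf7: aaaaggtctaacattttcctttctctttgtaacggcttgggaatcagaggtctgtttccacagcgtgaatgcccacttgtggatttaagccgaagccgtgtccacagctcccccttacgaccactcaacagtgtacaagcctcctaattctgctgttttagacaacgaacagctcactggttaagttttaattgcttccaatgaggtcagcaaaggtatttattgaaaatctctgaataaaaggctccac
Fgfr3: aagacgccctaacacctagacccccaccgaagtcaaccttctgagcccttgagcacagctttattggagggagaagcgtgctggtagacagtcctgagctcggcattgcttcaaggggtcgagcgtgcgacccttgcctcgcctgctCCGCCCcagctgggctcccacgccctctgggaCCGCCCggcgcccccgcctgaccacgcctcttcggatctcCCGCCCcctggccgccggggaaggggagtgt
None of the 5 motifs occurred in the Fgf7 window, whose G and C content was 45.7% against a median of 52.7% over all windows. The Fgfr3 window, at 69.7%, held 4 GC boxes, 3 of them before the start site, read on the opposite strand and not overlapping another motif. An NF-κB motif began at base 14 from the Fgfr3 start site (chr5:33721732-33721751, plus strand, with 5 bases on each side), also on the opposite strand:
Fgfr3 match: tggcgGGAGCACCCCccaac
The window of a second Fgfr3 start site (chr5:33722056-33722355, plus strand) held 2 GC boxes and no NF-κB motif. The motif also occurred in the windows for Fgf18 and Fgfr4, and in none for Fgf2, Fgfr2 and Spry2. A match is a run of letters and not a measured binding site.

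Fgf10, which uses the same splice form of Fgfr2 as Fgf7, was in the list of FGF ligands read beside the 9 genes. Its probe was printed on 10 spots, of which 8 to 10 were kept per array. The signal was 0.145 ± 0.0152 (SD of 9 spots) in control cells without TNF and 0.210 ± 0.0206 (SD of 8 spots) with TNF, and 0.297 ± 0.0117 (SD of 9 spots) and 0.406 ± 0.0212 (SD of 10 spots) on the cKO arrays without and with TNF. The lowest and highest spots were 0.121 and 0.166, 0.179 and 0.241, 0.280 and 0.315, and 0.379 and 0.443 in the same order, so that the spots of no pair of arrays overlapped. The log2 differences were 0.54 and 0.45 for TNF in control cells and on the cKO arrays and 1.04 and 0.96 for genotype without and with TNF, each with an SE from spots of at most 0.071. The genotype difference without TNF was past 2-fold, and 0.60 after normexp background correction.

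Fgf18, which acts through Fgfr3 in the growth plate, had 2 probes. The first read 0.644 and 0.639 in control cells without and with TNF and 0.765 and 0.770 on the cKO arrays, and the second 0.257, 0.262, 0.300 and 0.344 in that order. Both were higher on the cKO arrays, by 0.25 and 0.23 without TNF and by 0.27 and 0.39 with TNF on the log2 scale, and only the last value was past the 0.32 of 2 technical spreads. With TNF the differences were -0.01 and 0.03 in control cells and 0.01 and 0.20 on the cKO arrays, all within it. The single spot of each probe lay in a patch, on the control array with TNF for the first and on the cKO array without TNF for the second.

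Fgf2 was close to background. Its probe, on 10 spots, read 0.0757 ± 0.0140 (SD of 10 spots) in control cells without TNF and 0.0627 ± 0.0277 with TNF, and 0.0839 ± 0.0124 and 0.102 ± 0.00878 on the cKO arrays without and with TNF. Of the 10 spots, 8 were well above background on each control array and 10 on each cKO array. The log2 difference for TNF was -0.36 (SE 0.20 from spots) in control cells and 0.29 (SE 0.082) on the cKO arrays. The genotype difference was 0.15 (SE 0.11) without TNF and 0.81 (SE 0.19) with TNF, and 2 of the 10 spots of the control array with TNF lay in a patch and were the brightest on it. One spot of the untreated control array also lay in a patch. Without the spots in patches the TNF difference in control cells was -0.62 (SE 0.14) and the genotype difference with TNF 1.04 (SE 0.12), past 2-fold. After normexp background correction they were -0.075 and 0.34.

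**Figure D2:**
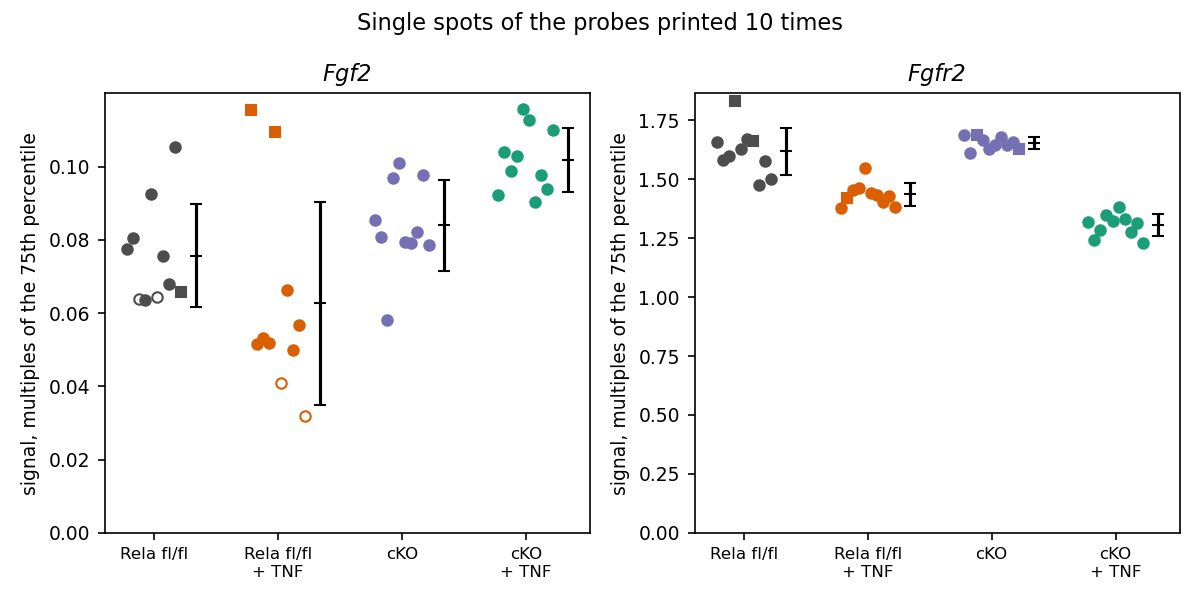
Signal of each of the 10 spots of the probes for Fgf2 and Fgfr2 printed 10 times, by array, in multiples of the 75th percentile. Open markers are spots not well above background, squares are spots in a bright patch, and the bar is the mean ± SD over spots. The Fgf2 spots on the control array with TNF ran from 0.0320 to 0.115, and the Fgfr2 spots of both TNF arrays were lower than most of the spots without TNF.

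Among the receptors, Fgfr3 was lower with TNF and lower on the cKO arrays. One probe (A_55_P1996578) read 44.3 and 32.1 in control cells without and with TNF and 33.9 and 28.6 on the cKO arrays. The other (A_65_P06147) read 3.87, 2.72, 3.06 and 1.96 in the same order. Both were highest in control cells without TNF and lowest on the cKO array with TNF. The log2 difference with TNF was -0.47 and -0.51 in control cells and -0.25 and -0.64 on the cKO arrays for the first and second probe. By genotype it was -0.39 and -0.34 without TNF and -0.17 and -0.47 with TNF, and the first probe at -0.168 with TNF was just inside the 0.173 of 2 technical spreads. After normexp the TNF differences were -0.46 and -0.40 for the first probe, within 0.47, and -0.51 and -0.76 for the second, past it, and no genotype pair was past it both without and with TNF. The second probe's spot on the control array with TNF lay in a patch. Fgfrl1, a receptor of the family without a kinase domain, was in the list of receptors and co-receptors and read 92.0, 73.0, 69.3 and 61.5, with TNF differences of -0.33 and -0.17 and genotype differences of -0.41 and -0.25. The chondrocyte markers differed among themselves by genotype. Without and with TNF, Matn1 was at -1.85 and -1.18, Col9a1 at -0.86 and -0.47, Col11a2 at -0.83 and -0.49, Cnmd at -0.81 and -0.63, Acan at -0.60 and -0.47, and Matn3 at -0.52 and -0.17. These 6 were at least as low as the first Fgfr3 probe both without and with TNF. Of the other 4, Hapln1 was at -0.31 and -0.04, Comp at -0.26 and -0.29, Sox9 at -0.15 and -0.12, and Col2a1 at -0.03 and 0.00. Of the 6 hypertrophic markers, Ibsp was at 1.13 and 0.97, Col10a1 at 0.83 and 0.97, Ihh at 0.53 and 0.85, Spp1 at 0.28 and 0.38, Pth1r at 0.15 and 0.31, and Mmp13 at 1.04 and -0.16. With TNF in control cells, 6 of the 10 chondrocyte markers were lower past 0.17, at -0.43 for Hapln1, -0.30 for Matn3, -0.29 for both Acan and Matn1 and -0.22 for both Col9a1 and Col11a2. On the cKO arrays these read -0.16, 0.05, -0.16, 0.38, 0.18 and 0.12 in that order, so none was lower past 0.17 there. The other 4 were between -0.13 and 0.03 in control cells. The TNF differences in control cells and on the cKO arrays were -0.82 and -0.50 for Ihh, -0.37 and -0.20 for Pth1r, -0.25 and -0.42 for Ibsp, -0.18 and -0.05 for Col10a1, 0.81 and 0.91 for Spp1 and 1.09 and -0.11 for Mmp13. Their part in the Fgfr3 differences was not tested.

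Fgfr2 was lower with TNF. One probe (A_55_P2094881) read 2.67 and 2.34 in control cells without and with TNF and 2.84 and 2.15 on the cKO arrays. The other (A_51_P432403), on 10 spots, gave 1.62 ± 0.10 (SD of 10 spots), 1.44 ± 0.049, 1.65 ± 0.027 and 1.31 ± 0.047 in that order. Its TNF difference was -0.17 (SE 0.032 from spots) in control cells and -0.34 (SE 0.018) on the cKO arrays, beside -0.19 and -0.40 for the other probe. In control cells this 10-spot probe, at -0.172, was just inside the 0.173 of 2 technical spreads. After normexp the TNF differences in control cells were -0.22 for the first probe and -0.17 for the 10-spot probe, both within 0.47. The genotype differences of the 10-spot probe were 0.03 (SE 0.029) without TNF and -0.14 (SE 0.023) with TNF, beside 0.09 and -0.12 for the other. Both probes thus gave a larger TNF difference on the cKO arrays, by -0.17 and -0.21 on the log2 scale, though whether the genotypes differed in this was not tested.

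Fgfr1 was nearly flat. Its 3 probes read 60.1, 55.5, 54.2 and 61.9, then 6.89, 6.08, 6.16 and 6.51, then 1.60, 1.79, 1.64 and 1.86, in control cells without and with TNF and on the cKO arrays without and with TNF. The largest spread of a probe over the 4 arrays was 0.22 on the log2 scale. With TNF the probes disagreed in control cells, at -0.11, -0.18 and 0.16, and read 0.19, 0.08 and 0.18 on the cKO arrays, where the first and last were past 0.17. In control cells the second was past it in the other direction, and its spot on the untreated control array lay in a patch. Genotype differences were -0.15, -0.16 and 0.03 without TNF and 0.16, 0.10 and 0.06 with TNF, all within 0.17.

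The 2 probes for Fgfr4 disagreed. The first (A_55_P2120055) read 0.827 and 0.555 in control cells without and with TNF and 0.843 and 0.640 on the cKO arrays, TNF differences of -0.57 and -0.40. The second (A_55_P2121871) read 0.520, 0.519, 0.541 and 0.424, TNF differences of -0.00 and -0.35. In control cells only the first probe was lower with TNF beyond 0.32, and on the cKO arrays both were, the second by a spot that lay in a patch on the cKO array with TNF. Genotype differences were 0.03 and 0.06 without TNF and 0.21 and -0.29 with TNF, all within 0.32.

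**Figure D3:**
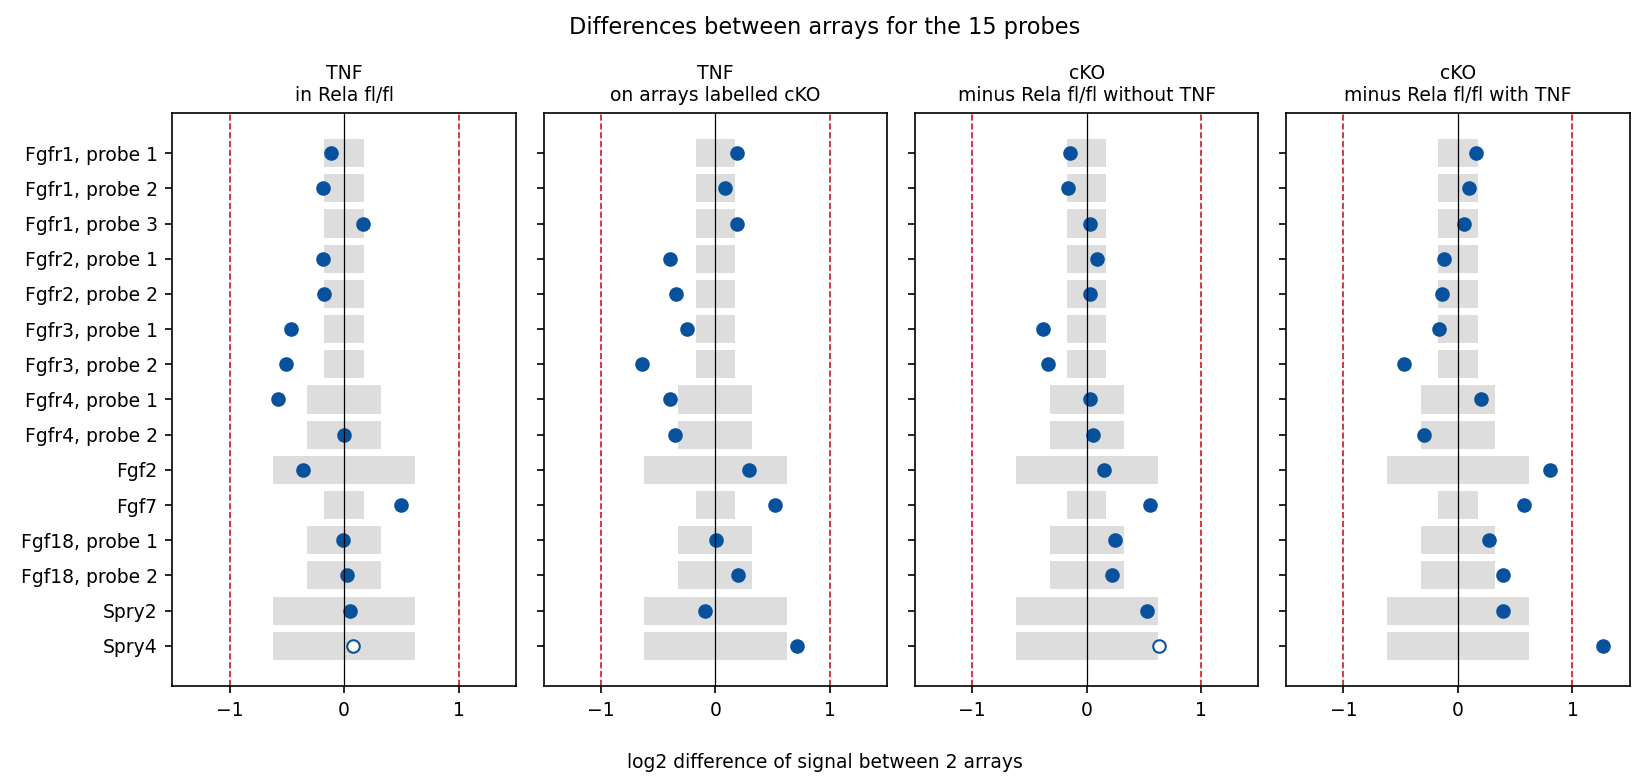
Log2 difference of signal between 2 arrays for the 15 probes in the 4 comparisons. Gray bars span 2 technical spreads for single spots at the probe's signal, dashed lines mark 2-fold, and open points include a dim array, entered at the lowest reliable signal of that array. Fgf7 lies right of the bar in every panel and the second Fgfr3 probe left of it, and Spry4 with TNF is the point past 2-fold.

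The Sprouty proteins act on the Ras cascade and damp receptor signals. Spry4 (A_52_P204311) read 0.0363, not well above background, in control cells without TNF, 0.0553 with TNF, and 0.0810 and 0.133 on the cKO arrays without and with TNF. With TNF it was 2.41-fold higher on the cKO array, a log2 difference of 1.27, and 0.62 after normexp background correction, where it did not pass 2-fold. The difference without TNF was at least 1.55-fold, log2 0.63, with the untreated control signal raised to the lowest reliable signal of its array, a bound that holds for this background correction, since after normexp the difference was 0.32. The TNF difference was 0.72 on the cKO arrays and at least 0.08 in control cells, and 0.47 and 0.18 after normexp. Spry2 (A_55_P1952251) read 0.0878, 0.0908, 0.126 and 0.119 in the same order. Its genotype differences, 0.53 without TNF and 0.39 with TNF, were within the 0.62 of 2 technical spreads for so dim a probe, and its TNF differences were 0.05 and -0.09.

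The rest of the pathway was read from 6 lists of 96 genes, all on the array. With TNF in control cells, 0 of 81 genes compared were higher past 2-fold and 1 was lower, against 1.76% and 3.07% of all genes. On the cKO arrays with TNF, 2 of 83 were higher and 1 lower, against 0.81% and 2.3%. Without TNF, 2 of 80 were higher and 3 lower on the cKO arrays, against 2.15% and 3.31%. With TNF, 5 of 83 were higher and 0 lower on the cKO array, against 1.29% and 2.29%. All 5, and the 2 higher with TNF on the cKO arrays, were feedback inhibitors or target genes, and these 2 comparisons share the cKO array with TNF. The 2 higher with TNF on the cKO arrays, Dusp6 and Spred2, did not reach 2-fold without scaling, at 0.93 and 0.97, or after normexp, at 0.89 and 0.86. Of the other changes, the endocrine ligand Fgf21 read 1.77 and 1.40 in control cells without and with TNF and 0.751 and 0.891 on the cKO arrays, and the heparan sulfate carrier Gpc3 read 1.37, 1.28, 0.577 and 0.644. After normexp background correction the genotype differences with TNF of those 5 genes were 0.62 for Spry4, 0.78 for Spred2, 0.92 for Dusp6, 0.96 for Ccnd1 and 1.21 for Etv4, so that Etv4 alone passed 2-fold. Without scaling Dusp6 and Ccnd1 were at 0.95 and 0.97 and Gpc3 at -1.06, which leaves 3 higher and 1 lower, and after quantile normalization Dusp6 and Ccnd1 were at 0.97 and 0.93. The calls for Fgf20 and Fgf22 rest on single spots in bright patches.

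Dusp6, a phosphatase that removes the activating phosphates of ERK, read 4.64 and 4.86 in control cells without and with TNF and 4.77 and 9.81 on the cKO arrays. Only the cKO array with TNF stood apart, with a TNF difference of 1.04 there, just past 2-fold, and 0.07 in control cells, and its spot lay in a patch on the cKO array without TNF. Spred2, a relative of Sprouty, read 0.255, 0.197, 0.199 and 0.419 in the same order, the first in a patch. Etv4, a transcription factor induced by FGF signals, read 0.577, 0.508, 0.747 and 1.32, and its dimmer probe read 0.0774, 0.0571, 0.0979 and 0.254. Etv5 read 11.2, 8.75, 10.7 and 15.9, with the last spot in a patch, and Ccnd1, the cyclin D1 gene, read 35.4, 34.0, 47.5 and 70.0. In each of these genes the cKO array with TNF was the highest of the 4, and that array also had the smallest share of spots in patches, 1.04%, whose part was not tested. Spred1 read 1.21, 1.17, 1.32 and 1.72, and Spry1 0.169, 0.139, 0.138 and 0.177.

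Across the 18 feedback inhibitors and target genes well above background on all arrays, which include Spry2, 12 were higher and 1 lower with TNF on the cKO arrays past 2 technical spreads, against 19.9% and 6.44% of all genes. In control cells 2 were higher and 3 lower, against 11.4% and 7.81%. Between genotypes 3 were higher and 2 lower without TNF, against 13.0% and 12.4%, and 11 higher and 0 lower with TNF, against 20.2% and 10.3%. These counts and shares hold for the main setting and were not made under the others. Without scaling Spry1 was within 0.32, at 0.26 with TNF on the cKO arrays and 0.28 by genotype with TNF. The medians over all probes also moved without scaling, from 0.07 to -0.04 and from 0.06 to -0.01 in these comparisons. The TNF difference was larger on the cKO arrays for 15 of the 18 and for 61.4% of all genes. Its median excess on the cKO arrays was 0.43 for the 8 feedback inhibitors and 0.12 for the 10 target genes, 0.36 for both lists together, against 0.06 over all genes, and this difference of differences was not tested, since the 4 arrays leave no error for it. Il17rd, another membrane inhibitor, read 0.267, 0.226, 0.183 and 0.209, genotype differences of -0.54 without TNF and -0.11 with TNF, and Fgf1 read 0.080, 0.064, 0.075 and 0.057, near background.

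**Figure D4:**
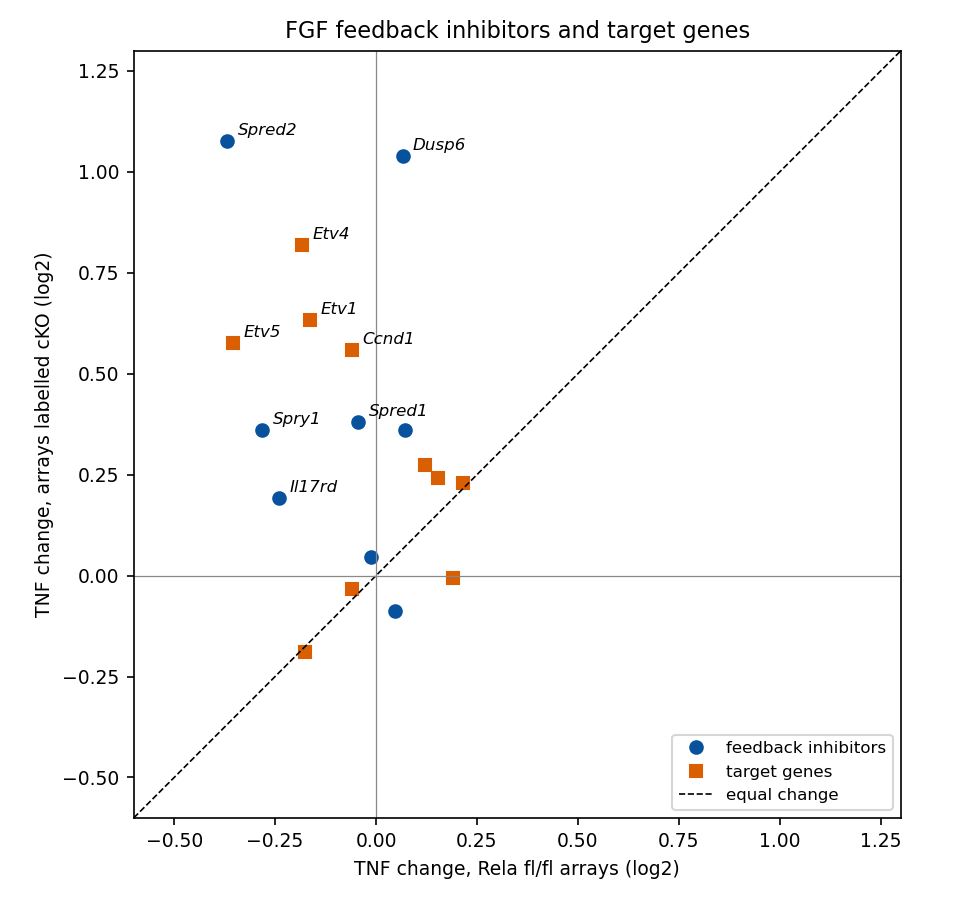
TNF change (log2) in control cells, x axis, and on the arrays labelled cKO, y axis, for 18 FGF feedback inhibitors and target genes, 1 point each, with equal change as a dashed line. Genes whose changes differed by over 0.4 are named, and 15 of the 18 lie above the line, Spred2 and Dusp6 highest.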

How the data were processed

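Each of the 4 samples was 1 one-colour Agilent SurePrint G3 mouse array of 1 condition, and the number of arrays limits the precision. The authors deposited the intensity of every spot as Feature Extraction 10.10.1.1 wrote it (background subtracted, flagged), and also a table of scaled intensity values, each the processed intensity times 1 factor per array (1.77 to 1.83). The log2 of the processed signal was taken and the 75th percentile of transcript spots subtracted. Outlier spots were left out and spots of a probe averaged. Symbols came from RefSeq by accession, and the assembly of the files (mm9) differs from that table, so no gene coordinates were taken from it. Differences were counted from a log2 value of 1 where the brighter spot passed the background flag, with a dimmer one that did not pass entered at the lowest signal that did. A spot lay in a patch where at least 3 others within 5 rows and 2 columns of it were bright, that is 2-fold above each other array. Genes stood by their brightest probe. The members and lists were chosen with earlier results of these data known, and the signal classes of the technical spread and the patch rule after values were seen. Named genes were the 9 members with all probes, list genes past 2-fold, a fixed set (Dusp6, Etv4, Etv5, Spry1, Spred1, Il17rd, Fgfrl1, Fgf1 and Ccnd1), Rela and sex-linked genes, beside the cell type markers. Protein sequences were not used here. Alternatives were scaling, quantile normalization and normexp (offset 50) in limma 3.58.1 under R 4.3.3, filters and limits. Python 3.11.15, numpy 2.4.6, pandas 2.3.3 and matplotlib 3.10.9 were used. The counting rule was tested on simulated data.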

Additional observations from a re-analysis of the deposited data

Results flagged for a closer look

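Some list genes had TNF or genotype differences of opposite sign past 2 technical spreads, taken at the mean level of the probe, in the groups compared, and the difference between them was not tested. With TNF, Spred2 read -0.37 in control cells and 1.08 on the cKO arrays, and its genotype difference was -0.36 without TNF and 1.09 with TNF. Its spot on the untreated control array lay in a patch, and after normexp background correction the values of -0.37 and -0.36 became -0.062 and -0.15, within 2 technical spreads. Etv5 read -0.36 and 0.58 with TNF in the same order, and -0.37 and 0.53 after normexp, where 2 spreads came to 0.47. Fgf21 read -0.33 and 0.25, past the 0.17 for its mean level, but its cKO signals were under 1, where 2 spreads came to 0.32.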

How the results depend on the processing

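No paired analysis was made, since each condition has 1 array and the groups compared share fewer than 2 replicate numbers. For the 9 genes, 282 of 308 values under other settings moved by less than 1 technical spread over all signals (0.14), 25 moved further and 1 that was larger than this spread changed sign: the genotype difference of the first Fgfr4 probe with TNF, 0.21, was -0.043 as the mean over its probes. Probes of the 9 genes past the limit, 0, 0, 0 and 1 for TNF in control cells and on the cKO arrays and for genotype without and with TNF, became 2, 1 and 2 in the last 3 at 1.5-fold, 0 with TNF at 3-fold and after normexp, 1 without TNF with no filter and 2 with TNF without patches. Pathway genes, 1, 3, 5 and 5, became 0, 1, 3 and 1 after normexp, 3, 9, 8 and 14 at 1.5-fold, 0, 1, 1 and 0 at 3-fold, 3, 6 and 10 in the first 3 with no filter, 0, 1 and 3 in the first 3 without patches, 1 for TNF on the cKO arrays without scaling, and 2 for TNF in control cells by any probe. With both arrays well above background they were 0 for TNF in control cells and 3 for genotype without TNF. Probes past 2 spreads in both genotypes with TNF, 1 higher and 4 lower, were 0 and 1 (the second Fgfr3 probe) after normexp, where 2 spreads for signals of 1 or more rose from 0.17 to 0.47 and the differences of Fgf7 and Fgfr3 kept their direction. Those lower on both cKO arrays, 1, were 2 without scaling or after quantile normalization and 0 after normexp or without patches. Over all transcript probes, with or without an mRNA symbol, 7.54, 5.53 and 8.69% passed 2-fold in the first 3 comparisons. The cause was not tested. Signals under 0.15, as for Fgf2, Spry2 and Spry4, limit what 1 array can show.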
